A study of Mus musculus with 27 samples.

Results

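The Cyp2b genes encode cytochrome P450 enzymes of the endoplasmic reticulum, which oxidise drugs, steroids and other lipophilic compounds. The 4 members described here were Cyp2b9, Cyp2b10, Cyp2b13 and Cyp2b19, found by their GENCODE M21 symbols among the 43346 genes of the count table. As background, Cyp2b10 is the classical target of the constitutive androstane receptor CAR (gene Nr1i3), a nuclear receptor that pairs with the retinoid X receptor and is activated by phenobarbital-like compounds. Cyp2b9 and Cyp2b13 are known in mouse liver as female-biased genes under growth hormone control, and Cyp2b19 is known as an enzyme of skin keratinocytes. Another gene of the family, Cyp2b23, is given beside Cyp2b19.

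RNA was sequenced from hepatocytes, the main cell type of the liver, of female mice aged 12 weeks, with no treatment named in the labels. The 9 groups were the inbred strains WSB/EiJ, C57BL/6J, DBA/2J, NZO/HlLtJ, A/J, PWK/PhJ, NOD/ShiLtJ, 129S1/SvImJ and CAST/EiJ, each with 3 libraries labelled as biological replicates. The labels do not say that each library came from its own mouse, so the p-values measure the spread between these libraries. The study also profiled DNA methylation and histone modifications in these mice, and the expression data ask how the strains differ in RNA levels. Library totals ran from 17015932 to 35078483 estimated counts. Levels are given as CPM, the counts of a gene relative to the library total after scaling by edgeR's TMM factors. Differences come from edgeR's quasi-likelihood test on all 27 libraries, with Benjamini-Hochberg adjustment, and an adjusted p under 0.05 was called.

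The hepatocyte label was checked against 10 marker genes, of which 10 were detected at 1 CPM or more, with sums of 109300 to 319400 CPM per library. Kupffer cell markers (liver macrophages, 10 genes) summed to 35 CPM in DBA/2J replicate 4 and up to 442.1 CPM in PWK/PhJ replicate 1. Endothelial markers (10 genes) summed to 62.2 CPM in NZO/HlLtJ replicate 1 and up to 776.1 CPM in PWK/PhJ replicate 1. In these bulk samples, fewer cells of a type and less RNA per cell cannot be told apart.

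The members lie on chromosome 7 of GRCm38, in a span of 875.011 kb with 24 annotated genes, 11 of them protein coding. Cyp2b10 (ENSMUSG00000030483) occupies chr7:25897620-25926624, Cyp2b13 (ENSMUSG00000040583) chr7:26061497-26096197 and Cyp2b9 (ENSMUSG00000040660) chr7:26173411-26210661. Cyp2b23 (ENSMUSG00000040650) follows at chr7:26665227-26686437 and Cyp2b19 (ENSMUSG00000066704) at chr7:26757142-26772630. Cyp2b23 is on the minus strand and the 4 members are on the plus strand. The longest annotated transcripts measure 1876 bases for Cyp2b9, 1916 for Cyp2b10, 1875 for Cyp2b13 and 2740 for Cyp2b19.

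The sequences just before the transcript starts are shown because Cyp2b9 and Cyp2b13 are close copies whose RNA levels are compared with each other throughout. Each is the 250 bases before the RefSeq start on GRCm38.p6, 5′ to 3′ on the plus strand, at chr7:26173159-26173408 for Cyp2b9, chr7:26061245-26061494 for Cyp2b13, chr7:25897408-25897657 for Cyp2b10 and chr7:26756892-26757141 for Cyp2b19. The reference is the C57BL/6J genome, and the promoter sequences of the other strains were not analysed here. Capitals mark TTGTATAA in Cyp2b9 and Cyp2b13, its counterpart TTGCATAA in Cyp2b10 and Cyp2b19, and the TATA-like letters ATAAAAG in the latter pair.
Cyp2b9: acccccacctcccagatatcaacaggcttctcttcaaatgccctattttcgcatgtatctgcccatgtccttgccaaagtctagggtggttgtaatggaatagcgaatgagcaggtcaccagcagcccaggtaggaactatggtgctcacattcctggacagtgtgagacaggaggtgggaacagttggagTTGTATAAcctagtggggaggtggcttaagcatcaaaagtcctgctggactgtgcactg
Cyp2b13: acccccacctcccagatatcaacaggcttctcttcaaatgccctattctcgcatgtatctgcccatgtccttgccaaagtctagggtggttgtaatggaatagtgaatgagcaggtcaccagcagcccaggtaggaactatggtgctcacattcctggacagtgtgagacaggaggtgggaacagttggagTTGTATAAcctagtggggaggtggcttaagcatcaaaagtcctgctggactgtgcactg
Cyp2b10: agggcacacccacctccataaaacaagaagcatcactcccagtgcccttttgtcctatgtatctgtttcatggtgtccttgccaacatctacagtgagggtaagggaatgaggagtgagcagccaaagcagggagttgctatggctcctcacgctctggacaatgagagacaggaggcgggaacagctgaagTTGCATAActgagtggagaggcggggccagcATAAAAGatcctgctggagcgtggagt
Cyp2b19: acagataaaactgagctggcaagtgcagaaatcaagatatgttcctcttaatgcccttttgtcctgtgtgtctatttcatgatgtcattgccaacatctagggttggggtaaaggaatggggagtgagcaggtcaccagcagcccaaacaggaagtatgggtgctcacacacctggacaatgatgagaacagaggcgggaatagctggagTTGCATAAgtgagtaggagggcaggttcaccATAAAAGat
The Cyp2b9 and Cyp2b13 windows were identical at 248 of 250 bases (99.2%). Counted from 1 at the window's 5′ end, with the Cyp2b9 base first, they differed by T48C and C104T, which lie 203 and 147 bases before the start. Other pairs of members were 70.1% to 76.8% identical.

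Both strands of all 32851 promoter windows in the RefSeq table were searched for these letters, which were chosen after the sequences were seen. TTGCATAA occurred in Cyp2b10, Cyp2b19 and Cyp2b23 and in 0.694% of all windows, and TTGTATAA in Cyp2b9 and Cyp2b13 and in 0.536%. ATAAAAG was in Cyp2b10, Cyp2b19 and Cyp2b23 and in 4.83% of windows. It began 27, 9 and 54 bases before the RefSeq start of these genes. In Cyp2b10 that place lies inside the GENCODE gene, whose start at chr7:25897620 is within the window. The nuclear receptor hexamer AGGTCA was in each Cyp2b window except that of Cyp2b10, and in 14% of all windows. Its direct repeat with a spacer of 4 bases, DR4 (0.0152% of windows), and the STAT letters TTCNNNGAA (7.02%) were in none of the Cyp2b windows. These matches describe letters in a short window of the reference and are not binding sites.

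Reads of these genes were divided between family members by the authors' counting, which bears on every level given for them. Counts were not whole in 26 of 27 libraries for Cyp2b9, 25 for Cyp2b10, 27 for Cyp2b13, 4 for Cyp2b19 and 3 for Cyp2b23. The sum of the 5 Cyp2b genes was whole in all 27 libraries (tolerance 0.001 counts), so the divided reads were shared within the family. The transcripts of Cyp2b9 and Cyp2b13 were 91.6% identical, Cyp2b9 and Cyp2b10 87.8%, and Cyp2b10 and Cyp2b13 88.0%. Of all 50-base windows of the Cyp2b9 transcripts, 10.8% were also present in Cyp2b13. Of those of Cyp2b13, 20% occurred in another gene, against 8.57% for Cyp2b10 and 2.45% for Cyp2b19. Whether the reads of each strain were aligned to its own genome is not given in the sources used here, and its part in the strain differences was not tested.

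Cyp2b9, Cyp2b10 and Cyp2b13 differed among the 9 strains. The adjusted p of the strain effect (edgeR) was 4.00e-13 for Cyp2b9, 3.51e-07 for Cyp2b10 and 1.01e-14 for Cyp2b13. Such a difference was common, at 74.2% of the 14482 genes tested. All 4 members passed the filter on low counts, but Cyp2b19 only through WSB/EiJ, where it was high, so its levels are given as a description with no test. What set the members apart from each other was which strains were high and low, as the plot of CPM by library shows.

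**Figure D1:**
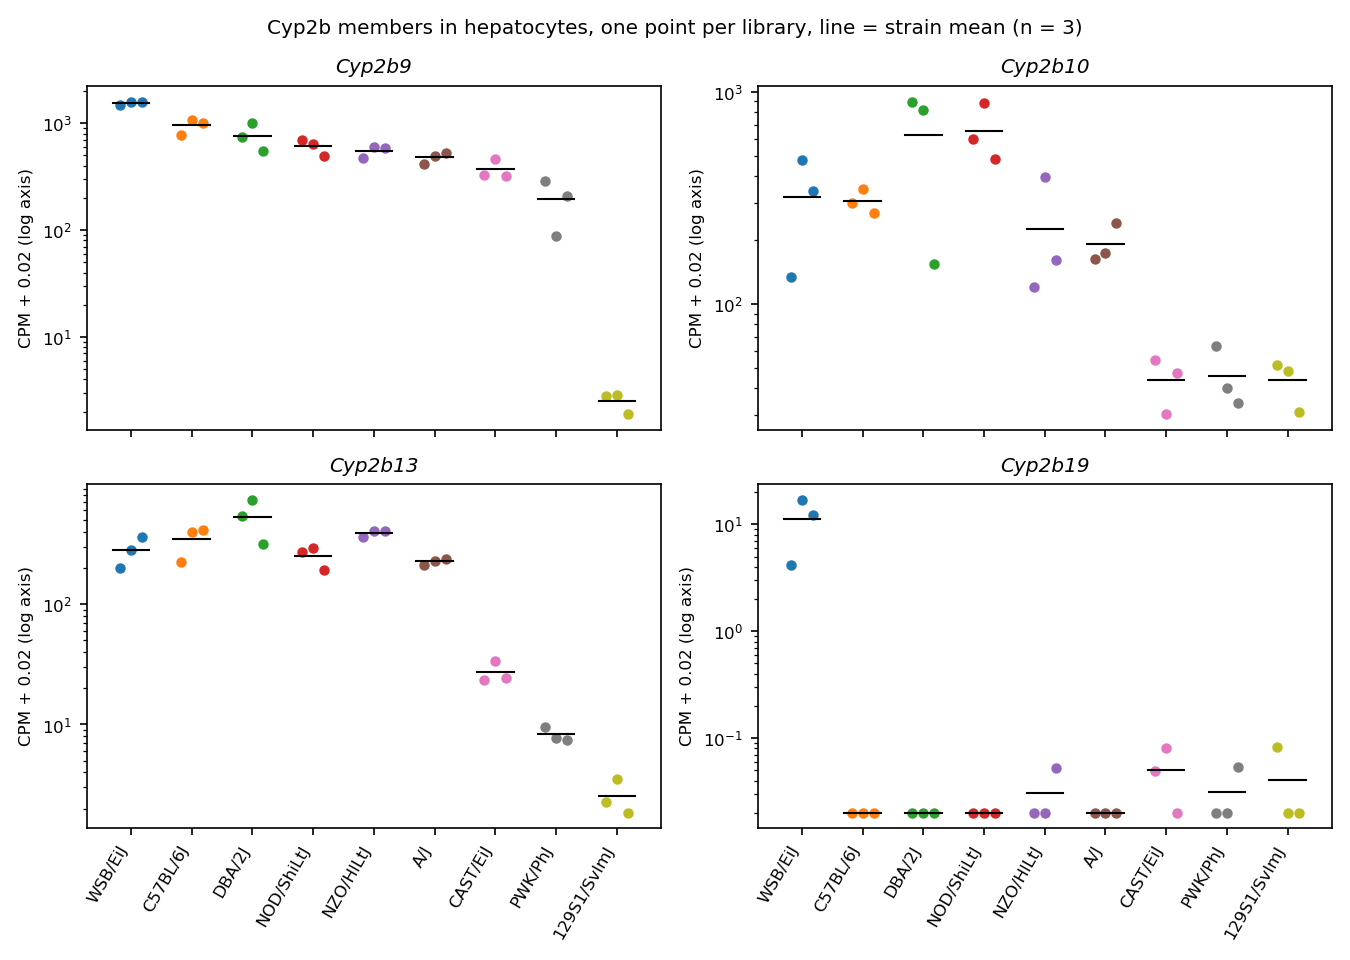
Level of each Cyp2b member in every library, as CPM + 0.02 on a log axis, by strain in the same order in each panel; each point is a library and each line the mean of the strain's 3 libraries. Cyp2b9 and Cyp2b13 both reached their lowest points in 129S1/SvImJ, at 1.86 and 1.83 CPM, Cyp2b10 was lowest in 129S1/SvImJ, CAST/EiJ and PWK/PhJ, and Cyp2b19 exceeded a few counts in WSB/EiJ alone.

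Cyp2b9, a P450 known as female-biased in mouse liver, was abundant in 8 strains and near absent in 129S1/SvImJ. The WSB/EiJ libraries held 1467, 1590 and 1572 CPM and the C57BL/6J libraries 782.1, 1076 and 996.3. The 129S1/SvImJ libraries held 2.76, 2.86 and 1.86 CPM, from 89, 100 and 57 counts. All WSB/EiJ libraries lay above all C57BL/6J libraries, and no library of another strain came near the 129S1/SvImJ values. Between these ends stood DBA/2J with 746.8, 1004 and 544.8 CPM, and NOD/ShiLtJ with 693.1, 637.1 and 490.4. NZO/HlLtJ gave 475.7, 595.4 and 579.3 CPM, and A/J 413.2, 493.5 and 525.1. Each pair of these 4 strains overlapped except A/J and DBA/2J. CAST/EiJ, with 329.7, 466 and 317.9 CPM, and PWK/PhJ, with 286.3, 87.6 and 207.3, had lower means, and PWK/PhJ replicate 2 was the lowest library outside 129S1/SvImJ. CAST/EiJ overlapped A/J, and PWK/PhJ overlapped neither.

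Mean Cyp2b9 levels fell in the order WSB/EiJ (1543 ± 66.5 CPM, SD, n = 3), C57BL/6J (951.4 ± 151.9), DBA/2J (765.2 ± 230.2), NOD/ShiLtJ (606.9 ± 104.7), NZO/HlLtJ (550.1 ± 65.0), A/J (477.3 ± 57.7), CAST/EiJ (371.2 ± 82.3), PWK/PhJ (193.7 ± 100) and 129S1/SvImJ (2.49 ± 0.55). Of neighbours in this order, the test separated PWK/PhJ from 129S1/SvImJ by 77.4-fold (edgeR adjusted p = 2.81e-12) and CAST/EiJ from PWK/PhJ by 1.92-fold (log2 0.94, SE 0.29, adjusted p = 0.0190). The CAST/EiJ against PWK/PhJ call was lost without CAST/EiJ replicate 4 (adjusted p = 0.0923) and without PWK/PhJ replicate 2 (0.0905), and in a fit on the 6 libraries of the pair (0.0884). The step from WSB/EiJ to C57BL/6J was 1.62-fold and was not called (adjusted p = 0.0796), although the libraries did not overlap; it was called without PWK/PhJ replicate 1 (0.0484) or replicate 2 (0.0235) and in the fit on 6 libraries (0.0388). From WSB/EiJ to 129S1/SvImJ the drop in Cyp2b9 was 616.5-fold (log2 -9.27, SE 0.41, adjusted p = 1.85e-14). Of the 36 pairs of strains, 24 were called for Cyp2b9, where 23.4% of all gene and pair tests were called. The libraries of 29 pairs did not overlap, and 5 of these pairs were not called. The share of pairs without overlap over all genes was not computed.

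Cyp2b13, the close copy of Cyp2b9 and likewise known as female-biased, was near absent in 129S1/SvImJ, and also low in PWK/PhJ and CAST/EiJ. The DBA/2J libraries, with the highest mean, held 542.4, 731.3 and 318.3 CPM, and replicate 4 lay below the NZO/HlLtJ libraries. NZO/HlLtJ had 359.1, 404.1 and 406.9 CPM, and C57BL/6J with 223.9, 400.4 and 411.8. WSB/EiJ, the strain with the most Cyp2b9 RNA, was in the middle for Cyp2b13, at 201, 283.1 and 364 CPM. NOD/ShiLtJ gave 272.3, 294.1 and 192.5 CPM and A/J 211.6, 229.8 and 237.3, so WSB/EiJ, NOD/ShiLtJ and A/J overlapped. CAST/EiJ held 23.4, 33.4 and 24.3 CPM, PWK/PhJ 9.58, 7.73 and 7.43, and 129S1/SvImJ 2.26, 3.52 and 1.83, the last from 73, 123 and 56 counts. These lowest 3 strains overlapped neither the others nor one another.

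The order of Cyp2b13 means was DBA/2J (530.7 ± 206.8 CPM, SD, n = 3), NZO/HlLtJ (390.0 ± 26.8), C57BL/6J (345.4 ± 105.3), WSB/EiJ (282.7 ± 81.5), NOD/ShiLtJ (253.0 ± 53.5), A/J (226.2 ± 13.2), CAST/EiJ (27.03 ± 5.54), PWK/PhJ (8.25 ± 1.17) and 129S1/SvImJ (2.54 ± 0.88). Neighbours from DBA/2J down to A/J were not separated by the test. Below A/J each step was called, with A/J 8.36-fold above CAST/EiJ (edgeR adjusted p = 2.66e-08), CAST/EiJ 3.28-fold above PWK/PhJ (9.40e-05) and PWK/PhJ 3.23-fold above 129S1/SvImJ (0.000201). DBA/2J exceeded 129S1/SvImJ by 208.1-fold for Cyp2b13 (log2 -7.70 for 129S1/SvImJ minus DBA/2J, SE 0.37, adjusted p = 8.40e-14), PWK/PhJ by 64.4-fold and CAST/EiJ by 19.6-fold. For Cyp2b13, 25 of 36 pairs were called, beside 23.4% of all gene and pair tests.

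The ratio of Cyp2b13 to Cyp2b9 differed widely among strains. Per kb of transcript, it was 0.712 ± 0.039 (SD, n = 3) in NZO/HlLtJ, 0.680 ± 0.083 in DBA/2J, 0.477 in A/J, 0.416 in NOD/ShiLtJ, 0.358 in C57BL/6J and 0.182 in WSB/EiJ. CAST/EiJ, at 0.0731 ± 0.0029, and PWK/PhJ, at 0.0526 ± 0.0310, had far less Cyp2b13 than Cyp2b9 RNA per kb. The PWK/PhJ mean was raised by replicate 2, at 0.0883, against 0.0335 and 0.0359 in the other PWK/PhJ libraries. In 129S1/SvImJ, where both were near absent, the ratio was 1.01 ± 0.21. So 129S1/SvImJ was low for both genes, whereas the low level of CAST/EiJ concerned Cyp2b13 more than Cyp2b9. CAST/EiJ held 27.03 CPM of Cyp2b13, against a mean of 254.9 CPM over the other 8 strains, and 371.2 CPM of Cyp2b9, against 636.2. On the log2 scale of the test, its Cyp2b9 was 0.257 above the mean of the other 8, not called (edgeR adjusted p = 0.351). The difference between the 2 genes was not tested.

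Cyp2b10, the CAR target, had a different order, with NOD/ShiLtJ and DBA/2J at the top. The NOD/ShiLtJ libraries held 595.9, 886.2 and 480.3 CPM. The DBA/2J libraries held 898.4, 819.4 and 153.4 CPM for replicates 2, 3 and 4. DBA/2J replicate 4 was thus far below the other DBA/2J libraries, and the plot of CPM by library shows it apart. WSB/EiJ gave 133.8, 479.4 and 340.9 CPM, C57BL/6J 297.9, 349.8 and 267.8, and NZO/HlLtJ 119.9, 396.3 and 160.5. A/J followed with 162.9, 173.8 and 241.2 CPM. Each pair of these 4 strains overlapped except A/J and C57BL/6J. The lowest strains were PWK/PhJ (63.2, 40.2 and 33.9 CPM), CAST/EiJ (54.4, 30.1 and 47.3) and 129S1/SvImJ (51.3, 48.4 and 31), and none of these libraries reached the lowest library of the other 6 strains, 119.9 CPM.

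Mean Cyp2b10 levels were 654.1 ± 209.1 CPM (SD, n = 3) in NOD/ShiLtJ, 623.7 ± 409.2 in DBA/2J, 318.0 ± 173.9 in WSB/EiJ, 305.2 ± 41.5 in C57BL/6J, 225.6 ± 149.2 in NZO/HlLtJ, 192.6 ± 42.4 in A/J, 45.8 ± 15.4 in PWK/PhJ, 44.0 ± 12.5 in CAST/EiJ and 43.6 ± 11.0 in 129S1/SvImJ. Of these neighbours only A/J and PWK/PhJ were separated by the test, at 4.21-fold (log2 2.07, SE 0.51, edgeR adjusted p = 0.00431). Among the lowest 3 strains the Cyp2b10 means differed by 1.01-fold to 1.05-fold (adjusted p 0.945 to 0.996). NOD/ShiLtJ exceeded 129S1/SvImJ by 15.0-fold (log2 -3.91 for 129S1/SvImJ minus NOD/ShiLtJ, SE 0.55, adjusted p = 9.44e-06). For Cyp2b10, 22 of 36 pairs were called, beside 23.4% of all gene and pair tests.

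The strains 129S1/SvImJ, CAST/EiJ and PWK/PhJ thus stood below the other 6 for Cyp2b10 and Cyp2b13, with 18 of the 18 pairs between these sets called for each gene, and with 15 of 18 for Cyp2b9. Over all gene and pair tests, 23.4% were called. Among the other 6 strains, 4 of 15 pairs were called for Cyp2b10, 4 for Cyp2b13 and 6 for Cyp2b9. Single libraries moved these counts. For Cyp2b10, 7 were called without DBA/2J replicate 4, and 2 without DBA/2J replicate 2 or 3, NOD/ShiLtJ replicate 2 or NZO/HlLtJ replicate 1 or 3. For Cyp2b13, 2 were called without DBA/2J replicate 3. The strains were put in these sets after their levels were seen. Kupffer markers moved with part of this pattern. They were lowest in 129S1/SvImJ and CAST/EiJ, with median sums of 47.6 and 66.0 CPM, and highest in C57BL/6J (259.6) and A/J (197.9), while PWK/PhJ had 151.5. In PWK/PhJ, 10 of 10 endothelial and 6 of 10 Kupffer markers were called higher than in the other strains and 1 Kupffer marker lower, where 19.4% of all genes were called higher and 14.8% lower. With covariates for the mean Kupffer and endothelial marker levels, added after the data were seen, 14 of the 18 pairs were called for Cyp2b10, 18 for Cyp2b13 and 14 for Cyp2b9. The Cyp2b10 pairs lost were 129S1/SvImJ against A/J (edgeR adjusted p = 0.299) and C57BL/6J (0.155), and CAST/EiJ against A/J (0.230) and C57BL/6J (0.11).

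Against the mean of the other 8 strains, 129S1/SvImJ was lower for Cyp2b9 (log2 -7.86, SE 0.37), Cyp2b13 (-5.88, SE 0.33) and Cyp2b10 (-2.25, SE 0.45), where 7.86% of all genes tested were called lower in this strain. PWK/PhJ was lower for Cyp2b13 (log2 -3.98, SE 0.29), Cyp2b10 (-2.17, SE 0.44) and Cyp2b9 (-0.80, SE 0.23, edgeR adjusted p = 0.00849), against 14.8% of all genes. Without PWK/PhJ replicate 2, the Cyp2b9 difference of PWK/PhJ was -0.45 and was not called (adjusted p = 0.11). CAST/EiJ was lower for Cyp2b10 (log2 -2.24, SE 0.45) and Cyp2b13, against 17.8%. Its Cyp2b9 difference was 0.257 and was not called (edgeR adjusted p = 0.351). NOD/ShiLtJ was higher for Cyp2b10 (log2 2.14, SE 0.31), against 9.2% of all genes. DBA/2J was higher for Cyp2b13 (log2 2.78, SE 0.16), Cyp2b10 (2.07, SE 0.31) and Cyp2b9 (1.43), against 9.5%. The near absence of Cyp2b9 and Cyp2b13 in 129S1/SvImJ lowers the mean log level that the other strains are set against. On this scale NOD/ShiLtJ was called higher for Cyp2b9 (1.06) and Cyp2b13 (1.58), although its mean CPM, 606.9 and 253, lay at or near the 606.8 and 226.6 of the other 8 strains. The Cyp2b9 value of DBA/2J, 765.2 against 587 CPM, is likewise enlarged, and that of PWK/PhJ, 193.7 against 658.4 CPM, is made smaller. A/J (0.665) and NZO/HlLtJ (0.895) were also called higher for Cyp2b9, although their mean CPM, 477.3 and 550.1, lay below the others' 623 and 613.9. The A/J call was lost without A/J replicate 2 or replicate 3.

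Cyp2b19 was detected above a few counts in WSB/EiJ alone. Its WSB/EiJ libraries held 4.17, 16.9 and 12.3 CPM, from 99, 418 and 266 counts, a mean of 11.1 ± 6.42 CPM (SD, n = 3). The other 24 libraries held 0 to 2 counts, and those of A/J, C57BL/6J, DBA/2J and NOD/ShiLtJ held 0. Against a floor of 3 counts per library, the WSB/EiJ mean was at least 84.1-fold (A/J) to at least 133.9-fold (NZO/HlLtJ) higher. WSB/EiJ replicate 2, at 4.17 CPM, lay far below that mean. Cyp2b23, its minus-strand neighbour, likewise passed the filter only through WSB/EiJ. It had 2.66, 3.51 and 6.45 CPM in WSB/EiJ, from 63, 87 and 140 counts, and 0 counts elsewhere except for 1 count in CAST/EiJ replicate 1. For Cyp2b23 the WSB/EiJ mean was at least 31.9-fold to at least 50.7-fold higher. These floors allow for counting error alone and not for the spread between libraries. Nor do they allow for PCR copies of a molecule, which are counted as separate reads.

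Because Cyp2b19 is known from keratinocytes, 8 keratinocyte markers were examined. Their sum was 0.279 to 1.33 CPM over all libraries and 0.337 to 0.921 CPM in WSB/EiJ, which lay inside that range. Of the 8 markers, 3 were at 0 in all libraries and none had a mean of 1 CPM or more. Krt10 alone passed the low count filter, and it was not called for a strain effect. The keratins Krt5 and Krt14 were at 0 in the WSB/EiJ libraries.

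Per kb of transcript, the family's summed RNA (the 4 members) was largest in WSB/EiJ and DBA/2J and smallest in 129S1/SvImJ. It was 1143 ± 159.6 CPM per kb (SD, n = 3) in WSB/EiJ, 1016 ± 424.0 in DBA/2J, 850.6 ± 143.1 in C57BL/6J, 799.8 ± 173.6 in NOD/ShiLtJ, 619.0 ± 116.3 in NZO/HlLtJ and 475.6 ± 57.1 in A/J. CAST/EiJ had 235.3 ± 40.7, PWK/PhJ 131.5 ± 59.5 and 129S1/SvImJ 25.4 ± 6.32 CPM per kb. Counts were whole for the sum of the 5 Cyp2b genes, which includes Cyp2b23. The sum of the 4 members depends on how reads were divided only through the few of Cyp2b23 and through differences in length. These are small except for Cyp2b19, at 2740 bases against 1875 to 1916, which held few of the reads.

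**Figure D2:**
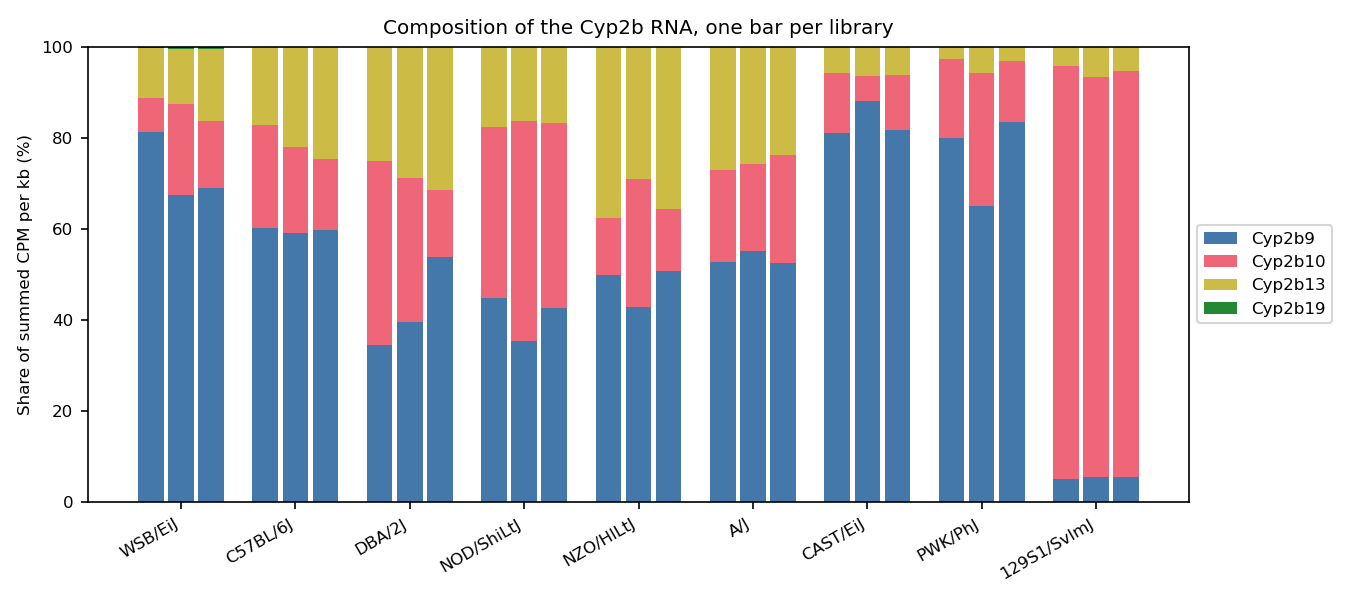
Share of each of the 4 members in the summed Cyp2b CPM per kb of transcript, in percent, as a stacked bar for every library, grouped by strain. Cyp2b9 held the largest mean share in each strain except 129S1/SvImJ, where Cyp2b10 held 88.1% to 90.8%, and NOD/ShiLtJ, where Cyp2b9 and Cyp2b10 were near 40.9% and 42.2%.

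The makeup of that RNA also varied among strains. Cyp2b9 made up 83.7% ± 3.84 (SD, n = 3) of the summed CPM per kb in CAST/EiJ, 76.2% ± 9.85 in PWK/PhJ, 72.7% ± 7.62 in WSB/EiJ and 59.7% ± 0.56 in C57BL/6J. Its share was 53.5% in A/J, 47.8% in NZO/HlLtJ, 42.6% in DBA/2J, 40.9% in NOD/ShiLtJ and 5.26% ± 0.24 in 129S1/SvImJ. Cyp2b10 made up 89.4% ± 1.37 in 129S1/SvImJ, the strain with the lowest mean Cyp2b10 level and with still less Cyp2b9 and Cyp2b13. Its share was 42.2% ± 5.43 in NOD/ShiLtJ, 29.0% ± 13.1 in DBA/2J, 14.0% in WSB/EiJ and 10.2% ± 4.05 in CAST/EiJ. Cyp2b13 held its largest share, 34.2% ± 4.48, in NZO/HlLtJ and its smallest, 3.81%, in PWK/PhJ, and Cyp2b19 reached 0.339% ± 0.168 in WSB/EiJ.

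Other known targets of CAR did not all follow the members. Of the 24 listed targets, 23 differed among the strains, beside the 74.2% of all genes, and Abcc4, an export pump, did not pass (edgeR adjusted p = 0.0709). The median range between the highest and lowest strain was 2.06 on the log2 scale, against 0.95 over all genes tested. In PWK/PhJ 13 of 24 targets were called lower and 2 higher, where 14.8% of all genes were lower and 19.4% higher. In CAST/EiJ 9 were lower and 3 higher, where 17.8% of all genes were lower and 20.1% higher. In 129S1/SvImJ, where Cyp2b10 was also low, 2 targets were lower and 4 higher, with 7.86% of all genes lower and 10.5% higher. In NOD/ShiLtJ 9 were higher and 2 lower, where 9.2% of all genes were higher and 5.72% lower. In DBA/2J 8 were higher and 2 lower, where 9.5% were higher and 3.78% lower. Strains in the middle for Cyp2b10 also had called targets. C57BL/6J had 10 higher, the most of any strain, and 1 lower, and WSB/EiJ had 9 and 2. A/J had 3 and 6, and NZO/HlLtJ 1 and 7. The shares over all genes in these strains are not given here.

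**Figure D3:**
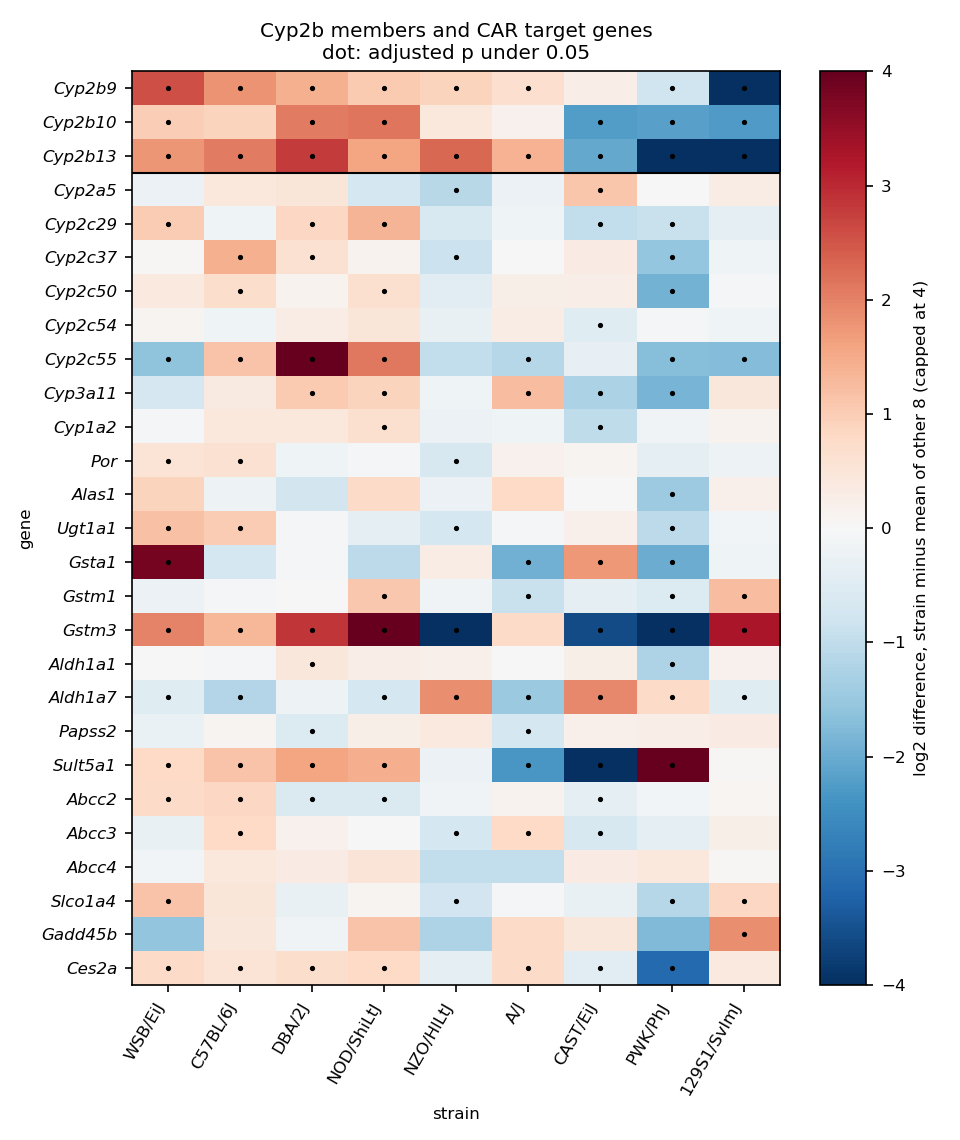
Difference of each strain from the mean of the other 8 strains (log2, colour scale capped at 4 in either direction) for Cyp2b9, Cyp2b10, Cyp2b13 and 24 listed CAR targets; a dot marks an adjusted p under 0.05 (edgeR). The columns of PWK/PhJ and NOD/ShiLtJ show 13 targets lower and 9 higher, and the column of 129S1/SvImJ shows 2 lower and 4 higher although Cyp2b10 was lower there. The C57BL/6J column shows 10 higher and 1 lower, that of WSB/EiJ 9 and 2, and that of NZO/HlLtJ 1 and 7.

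Cyp2c29, a P450 of the same broader family, was lower in CAST/EiJ (log2 -0.99, edgeR adjusted p = 0.00382) and PWK/PhJ (-0.88, 0.00922) and higher in NOD/ShiLtJ (1.37, 3.65e-05) and DBA/2J (0.84, 0.0101). In 129S1/SvImJ its difference was -0.36 (adjusted p = 0.315). Cyp2c55 rose by 4.21 in DBA/2J and 2.12 in NOD/ShiLtJ (log2), and was lower in 129S1/SvImJ (-1.72, adjusted p = 0.00624) and PWK/PhJ (-1.71, 0.00327). Ces2a, a carboxylesterase, fell by 3.12 in PWK/PhJ (log2, SE 0.21, adjusted p = 1.47e-11). Cyp3a11, the main Cyp3a enzyme of mouse liver, was lower in PWK/PhJ (-1.86) and CAST/EiJ (-1.28) and higher in DBA/2J (1.04) and NOD/ShiLtJ (0.89). Some targets went the other way from Cyp2b10. In 129S1/SvImJ, the glutathione transferase Gstm3 (3.25), the stress gene Gadd45b (1.85, adjusted p = 0.00968) and the uptake transporter Slco1a4 (0.83, 0.00921) were higher, and in CAST/EiJ Cyp2a5 was (1.11, 0.000720). Counts of Cyp3a11, Gstm3, Slco1a4 and Cyp2a5 were not whole in any of the 27 libraries, so their levels rest on divided reads, as did those of Cyp2c29 in 22 libraries and Ces2a in 3.

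Within strains, Cyp2b10 and several of these targets moved together from library to library. After each strain's mean log2 CPM was subtracted, the deviations of Cyp2b10 correlated with those of Cyp2c29 at r = 0.902 over 27 libraries, Cyp2c55 at 0.841, Ces2a at 0.759 and the bile salt transporter Abcc3 at 0.717. The DBA/2J libraries weighed on these values: replicate 4, low for Cyp2b10, was also low for Cyp2c29 (3492 CPM, against 8336 and 9679) and Cyp2c55 (19.6 CPM, against 89.8 and 139.8). Without the 3 DBA/2J libraries the correlations were 0.845, 0.731, 0.650 and 0.599 over 24 libraries. WSB/EiJ replicate 2 likewise had the lowest Cyp2b10 and Cyp2c29 (4964 CPM) of its strain. These libraries share strain, preparation and depth in ways that were not separated, so the values are a description.

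**Figure D4:**
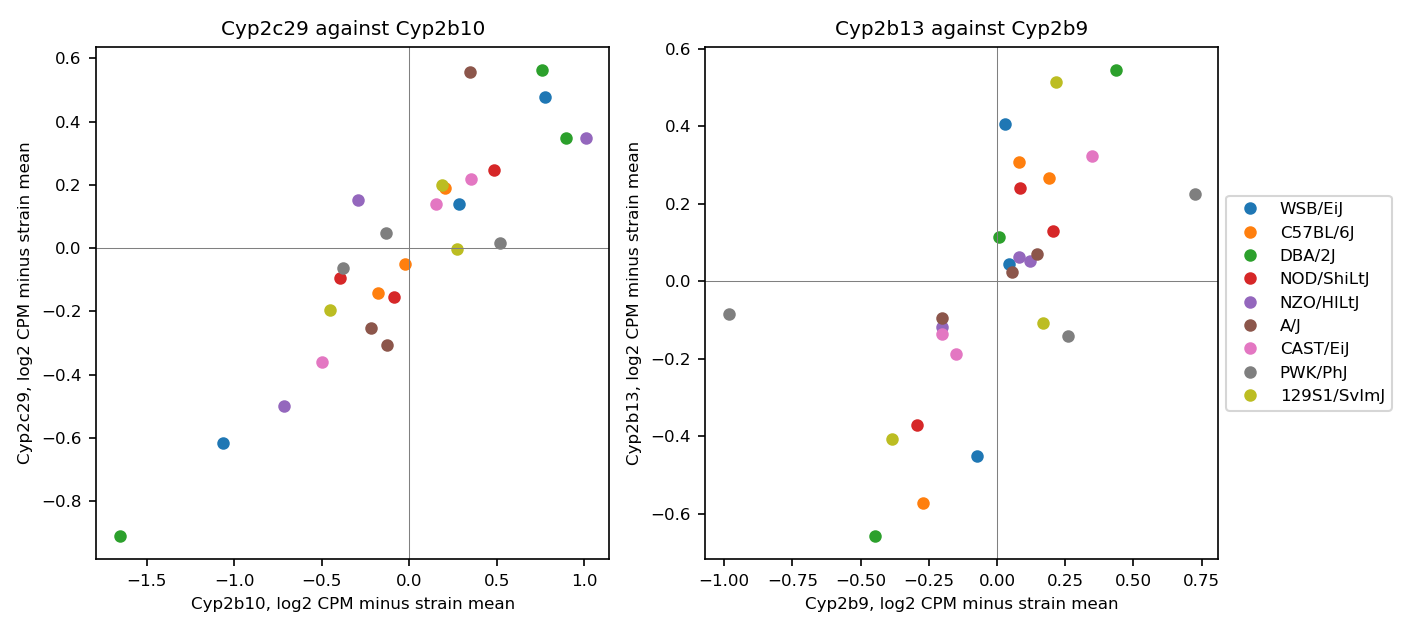
Deviation of each library from its strain's mean log2 CPM, coloured by strain, for Cyp2c29 against Cyp2b10 (left) and Cyp2b13 against Cyp2b9 (right); each point is a library. The left points lie along a line (r = 0.902 over 27 libraries, 0.845 without DBA/2J), and the right ones spread more widely (r = 0.629 and 0.548).

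Over the list, 23 of 24 CAR targets deviated in the same direction as Cyp2b10 (r above 0), 11 of them (45.8%) with r over 0.5, where 7060 of 14481 other genes tested had r above 0 and 4.36% had r over 0.5. Without DBA/2J, 21 of 24 were above 0 and 7 (29.2%) over 0.5, against 1.24% of all genes. The median r of the list was 0.44 with DBA/2J and 0.40 without it. The Kupffer markers also moved with Cyp2b10, at a median r of 0.52, with 10 of 10 above 0. Their median r was 0.21 without DBA/2J, whose replicate 4 had 35 CPM of these markers against 131.3 and 195.1 CPM in the other DBA/2J libraries. The part of this difference in the Cyp2b10 values was not tested. For Cyp2b13, 24 of 24 targets had r above 0 and 14 had r over 0.5, where 7173 of the other genes had r above 0 and 6.93% r over 0.5; without DBA/2J the counts were 22 and 9, against 3.49%. For Cyp2b9, 20 of 24 had r above 0 and 2 over 0.5, where 7536 of the other genes had r above 0 and 5.75% r over 0.5; without DBA/2J the counts were 19 and 1, against 4.095%. Of 10 endothelial markers, 6 had r over 0.5 with Cyp2b9, and 2 without DBA/2J. With Cyp2b13, 10 of 10 endothelial markers had r above 0, at a median r of 0.418, and 0.291 without DBA/2J. The Kupffer markers had a median r of 0.27 with Cyp2b13, and -0.071 without DBA/2J. Between members, the within-strain r was 0.629 for Cyp2b9 and Cyp2b13, 0.585 for Cyp2b10 and Cyp2b13 and 0.417 for Cyp2b9 and Cyp2b10, and counts of these genes share reads.

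The receptor itself did not follow the order of Cyp2b10. Nr1i3 (CAR) differed among strains (edgeR adjusted p = 0.000321), from 261.3 ± 50.6 CPM (SD, n = 3) in C57BL/6J to 111.5 ± 28.2 in PWK/PhJ. The 129S1/SvImJ level, 233.8 ± 34.1 CPM, was next to the highest and above the mean of the other strains (log2 0.60, SE 0.17, adjusted p = 0.0168), while Cyp2b10 was lowest there. PWK/PhJ was low for both (Nr1i3 log2 -0.61, SE 0.19, adjusted p = 0.0159). NOD/ShiLtJ (159.7 ± 43.1 CPM) and DBA/2J (117.7 ± 21.3 CPM), the strains with the most Cyp2b10, were in the middle and low part of the Nr1i3 range. Within strains, the r of Nr1i3 with Cyp2b10 was 0.297 over 27 libraries and 0.145 without DBA/2J. Counts of Nr1i3 were not whole in 27 libraries.

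Of the 15 receptors and cofactors listed, 10 differed among the strains, with a median range of 0.68 on the log2 scale, beside 74.2% of all genes and a median of 0.95. The pregnane X receptor Nr1i2, which shares many targets with CAR, ranged from 34.3 CPM in WSB/EiJ to 49.5 in CAST/EiJ (edgeR adjusted p = 0.0124). Against the other strains, 4 of the 15 were higher and 1 lower in 129S1/SvImJ, 3 lower in PWK/PhJ, 2 higher in CAST/EiJ, 1 higher in DBA/2J and none called in NOD/ShiLtJ. Over all genes, 10.5% were higher and 7.86% lower in 129S1/SvImJ, 14.8% lower in PWK/PhJ, 20.1% higher in CAST/EiJ and 9.5% higher in DBA/2J. A/J, not among the lowest strains for Cyp2b10, had the most lower calls, 5 of the 15. NZO/HlLtJ had 1 higher and 2 lower, and C57BL/6J and WSB/EiJ had 1 higher each. The shares over all genes in these strains are not given here. Of the electron donors of P450 enzymes, 4 of 4 differed among strains. Por, the reductase that supplies them, ranged from 287.7 ± 62.3 CPM in NZO/HlLtJ to 616.9 ± 83.0 CPM in C57BL/6J (adjusted p = 0.0116).

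Genes of the growth hormone axis, the known regulator of Cyp2b9 and Cyp2b13, had strain ranges near those of all genes. Of 12, 8 differed among strains, beside 74.2% of all genes, with a median range of 0.97 (log2) beside 0.95 over all genes. Not passing were the kinase Jak2 (edgeR adjusted p = 0.0744), the repressor Bcl6 (0.0627) and the pioneer factors Foxa1 (0.0615) and Foxa2 (0.501). Other female-biased liver genes varied more. All 20 listed differed among strains, with a median range of 4.04. In 129S1/SvImJ, where Cyp2b9 and Cyp2b13 were near absent, 3 of the 20 were higher and 4 lower than in the other strains. In CAST/EiJ 7 were higher and 7 lower, in PWK/PhJ 7 and 3, in NOD/ShiLtJ 3 and 7, and in DBA/2J 11 and 1. Over all genes, higher and lower calls made up 10.5% and 7.86% in 129S1/SvImJ, 20.1% and 17.8% in CAST/EiJ, 19.4% and 14.8% in PWK/PhJ, 9.2% and 5.72% in NOD/ShiLtJ and 9.5% and 3.78% in DBA/2J. Of 14 male-biased genes tested, 14 differed among strains (median range 4.71), and 8 were lower and 1 higher in 129S1/SvImJ. The median difference of 129S1/SvImJ from the other strains was 0.29 (log2) over the female-biased list and -1.35 over the male-biased list.

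The neighbouring Cyp2a genes did not all peak in the same strain. Cyp2a4, a female-biased steroid hydroxylase located between Cyp2b9 and Cyp2b23, had its highest level in PWK/PhJ, 3496 ± 656.3 CPM (SD, n = 3), and its lowest, 411.2 ± 126.3 CPM, in NOD/ShiLtJ, where Cyp2b10 was highest (edgeR adjusted p = 1.43e-06). Cyp2a12 was highest in WSB/EiJ at 1438 CPM and lowest in NOD/ShiLtJ at 131.1. Cyp2a22 was also highest in WSB/EiJ (280.7 ± 56.4 CPM) and lowest in PWK/PhJ (2.85 ± 0.44). Of the other listed neighbours that passed the low count filter, Cyp2a5 and Cyp2f2 also differed among strains, beside 74.2% of all genes, and Cyp2g1 did not pass the test (adjusted p = 0.182). Counts of the Cyp2a genes and Cyp2f2 were not whole in any of the 27 libraries.

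The genes whose levels followed each member most closely over the 27 libraries were ranked by Pearson's r of log2 CPM, as a description. For Cyp2b9 they were BC029722 (r = 0.844), Ugt3a1 (0.839), Plekhb2 (0.828), Fam173b (0.812) and Pex11g (0.809). The likeness of Plekhb2 rested on 129S1/SvImJ, with 1.07 CPM against 8.84 to 16.8 CPM in the other strains, and its rank correlation with Cyp2b9 was -0.20. The rank correlation was also lower for BC029722 (0.294) and Ugt3a1 (0.461). For Cyp2b10 they included Kcnk10 (0.872), Dct (0.866), Slfn9 (0.829) and Cyp2c29 (0.827), with rank correlations of 0.736 (Dct) to 0.835 (Cyp2c29). For Cyp2b13 they included Dct (0.907), Fam173b (0.889), Pex11g (0.859) and Kcnk10 (0.857), with rank correlations of 0.626 (Kcnk10) to 0.878 (Dct). Dct was at 74.1 ± 37.5 CPM in DBA/2J and at 0.121, 0.133 and 0.625 CPM in 129S1/SvImJ, CAST/EiJ and PWK/PhJ. For Cyp2b19 they were Mael (0.977), Cwc22 (0.971), Rims2 (0.916), Susd2 (0.913) and Gusb (0.892), which were higher in WSB/EiJ. Their rank correlations were lower, at 0.614, 0.312, 0.616, 0.457 and 0.075, with the Cyp2b19 counts of most libraries at or near 0. Cwc22, a splicing factor, had 260.9 ± 15.3 CPM there against 4.57 to 7.59 in the other strains. Among members, r over the libraries was 0.847 for Cyp2b9 and Cyp2b13, 0.843 for Cyp2b10 and Cyp2b13 and 0.619 for Cyp2b9 and Cyp2b10. Libraries of a strain share its genome, so these correlations rest on 9 strains.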

How the data were processed

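The authors deposited 1 table of estimated counts (expected counts) per Ensembl gene, not scaled to depth. Per the labels' protocols, polyadenylated RNA was sequenced from TruSeq libraries. Per the submitters' processing notes, GRCm38 and mm10, FastQC 0.11.5 and DESeq2 were named; the aligner, the counting program and the annotation release are not given in the sources used here. Of all values, 10.8% were not whole.

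Counts were rounded. Genes were filtered with filterByExpr by strain, which left 14482, scaled by TMM and tested with edgeR 4.0.16 (R 4.3.3, limma 3.58.1) for any strain difference, for 36 pairs (adjusted over all genes and pairs together) and for each strain against the mean of the other 8. Standard errors were derived from the F statistic. Symbols came from GENCODE M21 (42462 of 43346 IDs) and promoters from RefSeq. Levels per kb used the longest transcript. Ranges used log2(CPM + 0.5), and likeness log2 CPM with a prior count of 2, over protein-coding genes with a symbol outside the Cyp2a to Cyp2t neighbours. The test recovered known changes in simulated data. Alternatives were DESeq2 1.42.0, other size factors, other filters, no rounding, 6-library fits, the replicate number as a factor and leaving out each library. The members and lists were chosen with earlier results of these data known. A gene that the likeness rule named is not reported here.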

Additional observations from a re-analysis of the deposited data

How the results depend on the processing

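The strain effects of Cyp2b9, Cyp2b10 and Cyp2b13 and their counts of called pairs kept their side of the threshold, or stayed within 1.5 times, under each alternative run, DESeq2 included. Leaving out each library in turn gave 23 to 27 called pairs for Cyp2b9, 20 to 25 for Cyp2b10 and 23 to 26 for Cyp2b13, with the adjusted p of the Cyp2b10 strain effect (edgeR) from 8.64e-09 to 1.61e-06. With DBA/2J replicate 4 left out, DBA/2J was called above C57BL/6J (adjusted p = 0.0149) and WSB/EiJ (0.0192) for Cyp2b10. The Cyp2b9 call for C57BL/6J against NZO/HlLtJ (adjusted p = 0.0468) was lost without most single libraries. With Kupffer and endothelial covariates, added after the data were seen, 18 pairs were called for Cyp2b10, 24 for Cyp2b9 and 27 for Cyp2b13. Rank correlation moved 16 of 25 likeness values by at least 0.1 and kept 8; the reversed value was the rank correlation of Plekhb2 with Cyp2b9, -0.20. The replicate block gave 22 pairs for Cyp2b9, 22 for Cyp2b10 and 24 for Cyp2b13, with adjusted p of the strain effect 1.35e-10, 6.47e-06 and 6.30e-12. Under this block, which changed no strain effect, the calls lost were C57BL/6J against NZO/HlLtJ (adjusted p = 0.0844) and CAST/EiJ against DBA/2J (0.0876) for Cyp2b9 and A/J against NZO/HlLtJ (0.0638) for Cyp2b13. Same-numbered libraries of different strains correlated at a mean r of 0.010 over 76 pairs, against -0.003 over 248 pairs of different number. Of 27 libraries, 7 correlated best with their own number. Whether libraries of the same number shared a batch was not tested. Depth limits Cyp2b19 and Cyp2b23 outside WSB/EiJ to counts at or under the floor, and how reads were divided among members limits their separate levels.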
